A study of Mus musculus with 2 samples.

Results

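The regions described are 2926 DNase I hypersensitive peaks that were called in replicate 2 of an embryonic mouse hindbrain and had no counterpart in replicate 1. They were chosen by 3 criteria: a deposited score of at least 21, no base of overlap with any replicate 1 peak or hotspot, and a midpoint more than 1 kb from every transcription start site (TSS) of the GENCODE M21 basic annotation. Such peaks are called distal here. The 2926 regions were 3.72% of the 78589 replicate 2 distal peaks that reached the score (95% Wilson interval 3.59 to 3.86%), and they came from 148804 replicate 2 peaks and 412483 peaks in both libraries together. The overlap and the score defined the set, so this share is a description and nothing was tested with it. Among 35202 replicate 2 peaks within 1 kb of a TSS that reached the score, 2.06% lacked a counterpart. Wilson intervals throughout treat peaks as independent and cover counting error only.

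DNase-seq was performed on hindbrain of day 14.5 embryos of the mouse strain B6NCrl, with male and female embryos pooled. The design holds a single group without treatment, sampled as 2 biological replicates that were taken and sequenced apart. The dissected tissue is a mixture of cell types, so a site open in few cells cannot be told apart from a site weakly open in many. Replicate 1 had 263679 peaks with a median score of 47 and replicate 2 had 148804 with a median of 30, on chromosomes 1 to 19, X and Y; read depth is unknown because the files used here hold no read counts. Of 24 regulators of the hindbrain and rhombic lip, such as Hoxb2, Egr2, Zic1 and Atoh1, 21 had a promoter peak in replicate 1 and 19 in replicate 2; these are defining genes of the labelled tissue. Promoter peaks were also listed for 14 and 12 of 18 telencephalon regulators, respectively.

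Distal hypersensitive sites are stretches of open chromatin away from gene starts, where transcription factors displace or remodel nucleosomes, and many of them are enhancers or insulators. Genes that encode developmental transcription factors often lie in broad CpG-rich domains that carry several CpG islands. In cells that do not use them, such domains are commonly held by Polycomb complexes.

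The sequences of 4 of the 5 highest-scoring regions are shown first, because they are among the strongest distal sites called in replicate 2 only. Sequences are the plus strand of GRCm38.p6 from RefSeq, the same assembly as mm10, in which the deposited coordinates are given. Capitals mark matches on either strand to the consensus strings searched below. The first lies at chr7:137303076-137303225 in an intron of Ebf3, and its capitals are a ZIC and a MEIS match. The Cacng4 region, chr11:107784356-107784505, is intronic, and its capitals are FOX and proneural E-box matches that overlap at the first site. The Zeb2 region, chr2:45115936-45116085, is intronic with 2 OTX matches, and the region 5224 bp from the Swsap1 start, chr9:21950456-21950605, lies between genes with no match.
Ebf3 intron: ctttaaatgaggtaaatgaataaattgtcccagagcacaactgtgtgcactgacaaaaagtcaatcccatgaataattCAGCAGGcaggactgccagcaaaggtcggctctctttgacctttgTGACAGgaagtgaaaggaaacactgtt
Cacng4 intron: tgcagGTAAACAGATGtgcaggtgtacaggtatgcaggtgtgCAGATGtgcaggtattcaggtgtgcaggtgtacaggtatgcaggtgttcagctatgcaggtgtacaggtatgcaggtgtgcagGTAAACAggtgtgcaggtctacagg
Zeb2 intron: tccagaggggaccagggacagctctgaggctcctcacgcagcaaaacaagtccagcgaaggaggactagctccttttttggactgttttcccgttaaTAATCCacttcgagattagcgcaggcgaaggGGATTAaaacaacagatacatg
Swsap1 neighbourhood: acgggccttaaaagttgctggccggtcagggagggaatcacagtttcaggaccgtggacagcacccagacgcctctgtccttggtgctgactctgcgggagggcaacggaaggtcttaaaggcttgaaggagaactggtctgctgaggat
None of the Cacng4 region is masked as repeat in the reference, and all of its 32-base words occur once in the assembly.

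A second set shows regions from runs, that is, from 3 or more of the regions whose neighbouring midpoints lay at most 5 kb apart. Each is the highest-scoring region of its run that touches no exon. Capitals mark CpG dinucleotides, because the runs differed from the other regions in CpG content. The Zfhx3 region, chr8:108697056-108697205, is intronic. The regions at Nr2f1, chr13:78184716-78184865, at Hlx, chr1:184734516-184734665, and 35425 bp from the Slc7a15 start, chr12:8634416-8634565, lie between genes.
Zfhx3 run: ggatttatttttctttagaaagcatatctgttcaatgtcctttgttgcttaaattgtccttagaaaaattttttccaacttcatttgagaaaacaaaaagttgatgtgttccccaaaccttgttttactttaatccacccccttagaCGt
Nr2f1 run: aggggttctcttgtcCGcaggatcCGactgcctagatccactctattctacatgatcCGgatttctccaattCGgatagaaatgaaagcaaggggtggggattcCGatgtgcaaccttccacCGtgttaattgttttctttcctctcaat
Hlx run: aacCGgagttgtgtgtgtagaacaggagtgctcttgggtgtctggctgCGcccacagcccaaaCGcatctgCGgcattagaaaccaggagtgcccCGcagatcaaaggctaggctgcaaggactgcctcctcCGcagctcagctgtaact
Slc7a15 run: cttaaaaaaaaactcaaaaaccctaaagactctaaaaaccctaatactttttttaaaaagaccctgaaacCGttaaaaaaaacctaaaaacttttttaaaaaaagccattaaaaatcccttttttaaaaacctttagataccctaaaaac
These windows held 1, 6, 6 and 1 CpG, in that order. Their GC content was 32%, 46.7%, 58% and 24.7%. The Slc7a15 run was shown because it had the highest repeat content of all runs, a choice made after its values were seen.

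The regions are stronger only in relation to the replicate 2 peaks below the lower quartile of score, which was 21. Their median score was 23 (quartiles 22 and 26), at the 33.1 percentile of all replicate 2 peaks and the 14.9 percentile of its distal peaks of score 21 or more. Distal peaks that overlapped a replicate 1 peak, called shared peaks below, had a median score of 34. Of the 2926 regions, 289 scored at least 30 (9.88%) and 24 at least 40, and the highest scored 56. What the score counts is not stated in the sources used here.

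The share of distal peaks without a replicate 1 counterpart was lower at higher scores. It was 95.1% at scores 1 to 10, 40.7% at 11 to 20 and 14.5% at 21 to 22. Higher up it was 8.77% at 23 to 25, 4.04% at 26 to 30, 1.13% at 31 to 40 and 0.113% at 41 to 60. None of 10846 distal peaks above 60 lacked a counterpart, which allows a share of up to 0.0277%. The rule used the score and the overlap, so this is a description of where the regions sit in the library.

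**Figure D1:**
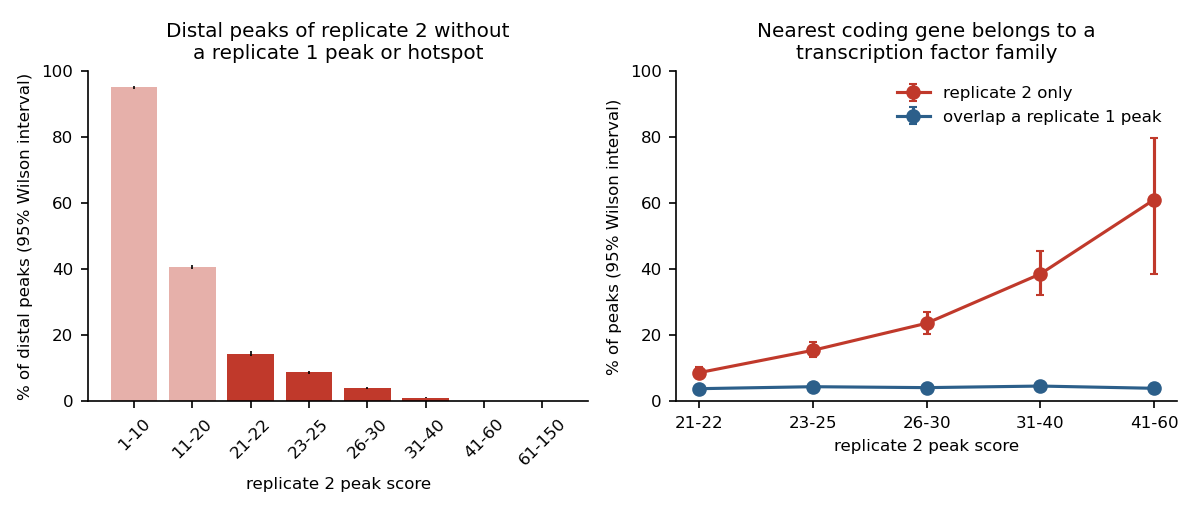
Left, share of replicate 2 distal peaks with no replicate 1 peak or hotspot (vertical axis, percent) in 8 score classes (horizontal axis), with the classes of the described regions in dark red; the share goes from 95.1% to 0. Right, share of peaks whose nearest protein-coding gene belongs to a transcription factor family, for replicate 2-only peaks (red) and shared peaks (blue) by score class; error bars are 95% Wilson intervals, and the red points go from 8.73% to 61.1% while the blue points lie between 3.87% and 4.66%.

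Values on both sides of the score threshold were as follows. The 1123 regions with a score of 21 or 22 had a median GC content of 45.3%, and 8.73% of them were nearest to a gene of a transcription factor family. The 1528 replicate 2-only distal peaks with a score of 19 or 20, just outside the set, had values of 44.7% and 8.77%. Within 5 kb of a TSS lay 30.3% of the former (27.7 to 33.0%) and 24.9% of the latter (22.8 to 27.2%).

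Distances from the regions to open chromatin of replicate 1 varied widely. They are given without a comparison set, so they are a description only. The median distance to the nearest replicate 1 peak or hotspot was 510 bp (quartiles 126 and 2404.5 bp). Within 100 bp lay 21.3% of the regions, within 500 bp 49.5% (1447 of 2926) and within 5 kb 87.3%. Only 22 regions were more than 20 kb from replicate 1 signal, and the most remote, at 58247 bp, was an intronic region of Ccdc7a with a score of 23. The nearest replicate 1 peak had a median score of 60, above that library's median of 47. The surroundings of the regions thus differed, with replicate 1 signal within 500 bp of 49.5% and none within 1 kb of 39.1%.

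All 2926 regions overlapped a replicate 2 hotspot, where any overlap counted. So did all shared peaks and all replicate 2-only distal peaks under score 21, so this overlap does not set the regions apart. A hotspot is a region of enriched cutting of variable length, and each carries the −log10 of a q-value capped at 100. The hotspots of the regions had a median −log10 q of 2.07 and a median length of 142.5 bp. For shared peaks weighted to the same scores the medians were 2.34 and 170 bp, and without the weights they were 4.39 and 267 bp. The cap was reached by 4.75% of the regions' hotspots and by 3.67% of the score-weighted shared ones. For 8.03% of the regions (235) the replicate 2 hotspot met a replicate 1 peak or hotspot elsewhere along its length.

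The nearest coding genes of the highest-scoring regions were mostly those of transcription factors. The top region, with a score of 56, lay in an intron of Ebf3, which encodes a helix-loop-helix factor of neuronal differentiation, and was 486 bp from replicate 1 signal. Other high-scoring regions lay in Cacng4, an AMPA receptor auxiliary subunit, with 51, in Zeb2, a zinc-finger homeobox factor, with 51, and near Swsap1, a DNA repair gene, with 50. Further regions among the 12 highest, of which 11 are named, were at Onecut1 (47), Alx1 (46), Meis2 (46), Ebf3 again (46), Nfatc2 (45), Zfp184 (44) and Ahdc1 (43). Of these 12, 9 were intronic. The Nfatc2 and Zfp184 regions lay between genes, 138980 bp and 37923 bp from the starts of those genes, so there the name marks a position only. The Alx1 region was separated from a replicate 1 peak by 10 bp and touched the edge of a replicate 1 hotspot, whereas the regions at Nfatc2, Zfp184 and Swsap1 were more than 3 kb from either.

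By nearest protein-coding TSS the 2926 regions fell to 1850 genes. A single region was counted for 1332 genes, 2 or 3 for 419, and 4 or more for 99 genes that together held 658 regions. Among the genes with most regions, developmental transcription factors were frequent. To describe this, the coding genes were marked by symbol as members of families such as Hox, Fox, Sox, Pou, Nkx, Tbx and Meis. The family list was drawn up after the nearest genes had been seen, so its counts are descriptions. Genes of the families made up 42 of the 99 genes with 4 or more regions and 11 of the 14 with 10 or more.

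Genes of these families were nearest to 482 of the 2926 regions, 16.5% (15.2 to 17.9%). The share was 9.51% when each run was counted once. It was 4.06% among shared peaks, 4.19% after weighting them to the same scores and 4.34% among the 78989 replicate 1-only distal peaks at or above that library's lower quartile. Seen from the genes, 13.1% of the 3679 replicate 2 distal peaks of score 21 or more nearest to such a gene lacked a replicate 1 counterpart, against 3.72% of all distal peaks. A region was nearest to 126 of the 269 family genes that had any replicate 2 distal peak of score 21 or more (46.8%), and to 1724 of 13102 other coding genes (13.2%).

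The share at transcription factor genes was higher among regions of higher score. It was 8.73% at scores 21 to 22, 15.5% at 23 to 25, 23.7% at 26 to 30 and 38.6% at 31 to 40. At 41 to 60 it was 61.1%, from 11 of 18 regions (38.6 to 79.7%). Shared peaks of the same classes stayed at 3.87%, 4.47%, 4.18%, 4.66% and 3.98%. Outside runs the same order was seen, with 5.04%, 6.94%, 11.4%, 21.1% and 45.5%, the last from 5 of 11 regions.

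Families differed in their share, and examples over the range are given. Of the replicate 2 distal peaks of score 21 or more nearest to Hlx 15 of 24 were among the regions (62.5%). The counts were 13 of 22 at Onecut genes (59.1%), 10 of 23 at Isl genes (43.5%) and 32 of 114 at Nr2f genes (28.1%). In the larger families the shares were 10.4% for Fox (45 of 433), 6.24% for Sox (26 of 417) and 4.21% for Irx (9 of 214), the last near the 3.72% of all distal peaks. Genes of the Nfi family had 86 such peaks and Lmx genes 54, and none of either was among the regions, which allows shares of up to 3.49% and 5.56%.

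The gene with most regions was Zfhx3, a large zinc-finger homeobox factor. It was nearest to 36 regions, 28.1% of its 128 replicate 2 distal peaks of score 21 or more. Nr2f1, a nuclear receptor of neural patterning, had 28 of 67 (41.8%). Hlx, a homeobox factor of gut mesenchyme and blood cells, had 15 of 24. Emx2, a factor of the dorsal telencephalon, had 12 of 26, and Pou3f3, a POU factor of neural progenitors, had 12 of 69. Ebf3 had 10 of 47, Isl2 10 of 16, Nkx2-3 10 of 14, Meis1 10 of 82 and Meis2 9 of 66.

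Nfe2l3 and Cypt12, also among the leading 15 genes, were not of these families. Nfe2l3 had 14 of 50, all at least 249539 bp from its start and nearer to Mir148a. Cypt12 had 13 of 60, at least 145779 bp away, so for both the gene name marks a position and little else.

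The promoters of these genes were mostly open in both libraries. Promoter peaks scored 101 in replicate 1 and 75 in replicate 2 at Zfhx3, 124 and 92 at Nr2f1, 97 and 53 at Hlx, and 74 and 44 at Emx2. A promoter peak was listed in replicate 2 alone at Nkx2-3 (25) and Alx1 (28). Scores were not scaled between libraries, so the 2 values of a gene are given side by side and no difference is drawn from them.

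The regions formed 92 runs, which held 483 of them (16.5%). Of the runs 42 had 3 regions, 32 had 5 or more and 8 had 10 or more. Their length had a median of 3560 bp and ran from 210 to 27010 bp. Each region is 150 bp wide and regions can overlap one another, as the 3 regions of the 210 bp run do. Counts of regions and runs are therefore not counts of separate sites. In 47 of 92 runs (51.1%, 41 to 61.1%) the most frequent nearest coding gene belonged to a transcription factor family, as it did in 23 of 32 runs of 5 or more and 6 of 8 runs of 10 or more. Regions in runs were nearest to such genes in 59.8% of cases (289 of 483), and regions outside runs in 7.90% (193 of 2443).

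Within the spans of the runs replicate 1 had few peaks although it had more peaks genome-wide. The 92 spans, 426720 bp in all, held 773 replicate 2 peaks and 197 replicate 1 peaks, a ratio of 0.255 replicate 1 peaks per replicate 2 peak, while over the whole libraries the ratio was 1.77. Replicate 2 hotspots covered 44.5% of the spans and replicate 1 hotspots 13.4%. In 90 of 92 spans replicate 2 had more peaks, and 29 held no replicate 1 peak. Runs were built from peaks absent in replicate 1, so an excess of replicate 2 peaks was fixed by the rule.

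The longest run in number, with 25 regions, lay in introns of Zfhx3 at chr8:108695576-108711385. The scores of its regions ran from 21 to 35 with a median of 25. The span held 37 replicate 2 peaks, of which 7 were shared, and 6 replicate 1 peaks that scored 52 to 96. Replicate 2 hotspots covered 53.6% of it and replicate 1 hotspots 10.2%.

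The run at Nkx2-3 is an example in which every region can be listed. At Nkx2-3, chr19:43607816-43613825, 9 regions scored 22, 24, 24, 30, 30, 32, 37, 40 and 42. Nkx2-3 is a homeobox factor of spleen and gut. No replicate 1 peak or hotspot lay in the span, and 29.95% of it was covered by replicate 2 hotspots. At Hlx, chr1:184729356-184735865, 13 regions flanked a single replicate 1 peak with a score of 97. At Emx2, chr19:59460076-59471245, 11 regions stood beside 2 replicate 1 peaks (66 and 68), and at Isl2, chr9:55543336-55548285, 10 regions stood beside 2 (60 and 69). At Sox14, a factor of diencephalic and other interneurons, chr9:99867716-99873945, 9 regions had 1 replicate 1 peak among them, with a score of 82.

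The runs at Nr2f1 and near Mir148a had more replicate 1 peaks. At chr13:78175576-78190425, beside Nr2f1, 17 regions lay among 10 replicate 1 peaks that scored 46 to 100. At chr6:51172536-51183205, near Mir148a, 12 regions lay among 15 replicate 1 peaks that scored 35 to 125. In both, some regions lay between peaks that the libraries shared, and others lay beyond the last shared peak of the span.

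**Figure D2:**
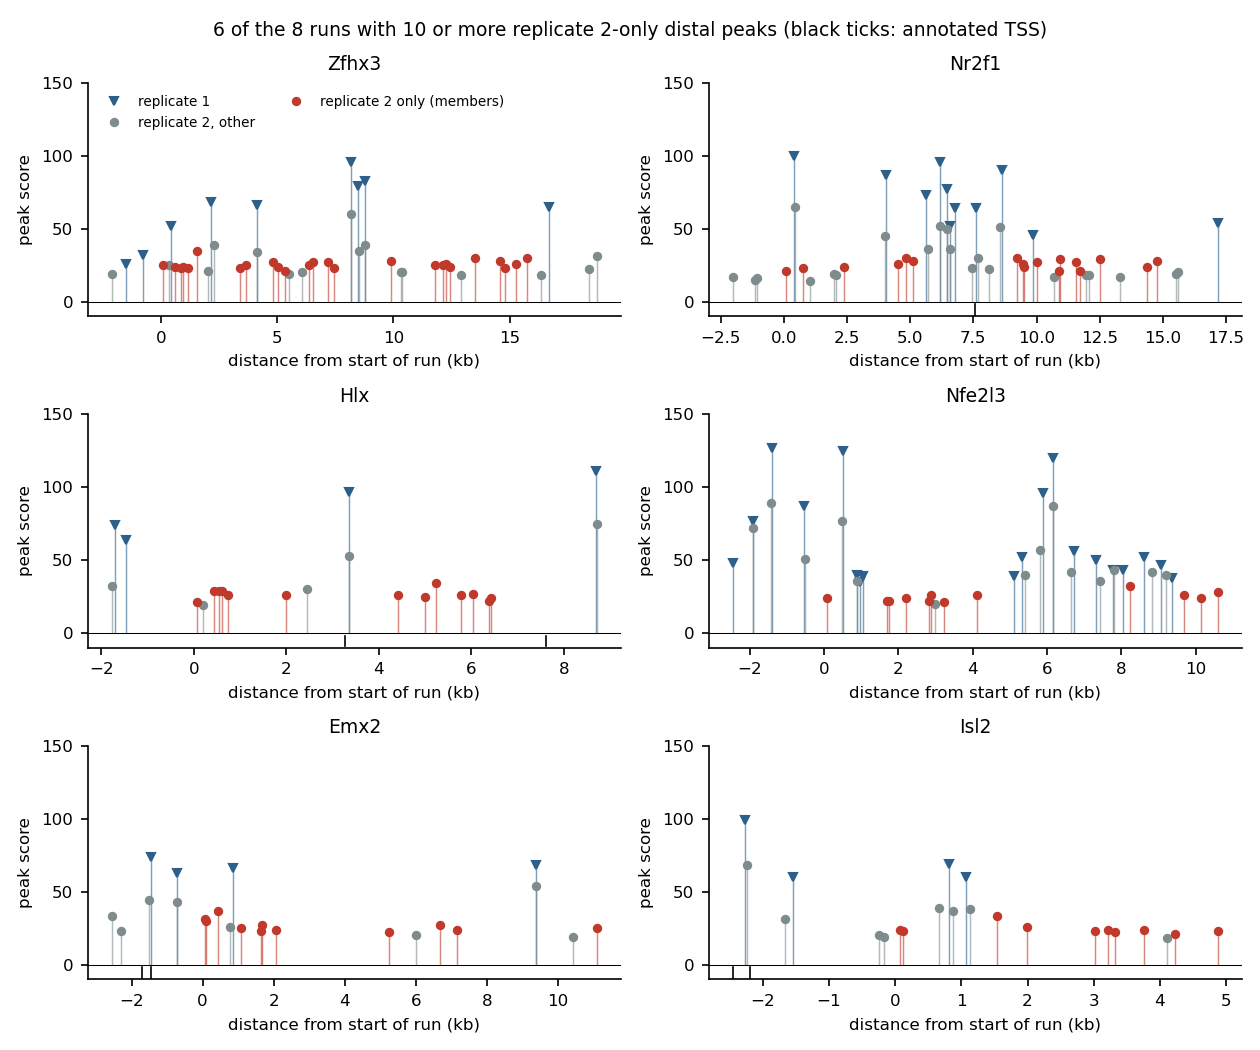
Peaks in 6 of the 8 runs with 10 or more regions, with 3 kb on each side: horizontal axis, distance from the start of the run (kb); vertical axis, deposited peak score. Red circles are the replicate 2-only distal regions, grey circles other replicate 2 peaks, blue triangles replicate 1 peaks, and black ticks annotated TSS. The regions of the 6 runs score 21 to 37, and replicate 1 peaks in the spans score 35 to 125. Scores were not scaled between libraries, so heights of the 2 libraries are not to be compared.

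Among the gene lists drawn up for the tissue, the regions made up their highest share of peaks within 50 kb of telencephalon regulators. Meningeal, mesenchymal and skeletal genes came next. Lists were chosen with earlier results of these data known, and 119 of their 263 genes belong to the transcription factor families above. By nearest coding TSS the share at genes of those families was 13.1%. By the same measure it was 17.6% (12.9 to 23.6%) at telencephalon regulators. At midbrain regulators it was 7.81%, and at hindbrain regulators 6.19% (3.95 to 9.56%). The part of the transcription factor families in the list shares was not tested. Within 50 kb of any protein-coding TSS, 4.17% of replicate 2 distal peaks of score 21 or more (1859 of 44587) lacked a replicate 1 counterpart. The share was higher for 13 of 18 lists, and for 7 the Wilson interval lay wholly above 4.17%. Regions of 1 run enter such an interval as if they were independent, which makes it too narrow. With each run counted once the share over all coding genes was 3.44%, and the intervals of 5 lists lay above it, those of telencephalon, diencephalon, mesenchymal, posterior Hox and hindbrain genes. The midbrain and sensory placode intervals then included it.

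In the count of single regions within 50 kb, telencephalon regulators had the highest share, 46 of 120 peaks or 38.3% (30.1 to 47.3%). The order of the lists changed with the setting: by nearest coding TSS the share was 17.6%, below 31.3% at posterior Hox genes, 20.5% at mesenchymal genes and 19.4% at diencephalon regulators. Of these 46, 12 were at Emx2, and Bcl11b and Eomes, factors of cortical neurons and their progenitors, had 4 each. No region was within 50 kb of Dlx1, Dlx2, Emx1, Fezf2, Lhx2 or Tbr1, among others, so the share rested on few loci. With each run counted once it was 18.7%, below the mesenchymal genes.

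Meningeal, mesenchymal and skeletal genes followed with 34 of 119 peaks, 28.6% (21.2 to 37.3%). Tbx18 had 8 of 9, and Tbx15 and Alx1, T-box and homeobox factors of craniofacial and limb mesenchyme, had 6 of 8 and 6 of 7. Other factors of the list ranged from none of 11 at Sox5 and 3 of 21 at Twist1 to 2 of 10 at Foxc2 and 2 of 4 at Foxc1. Among the matrix genes, Col1a1 had 1 of 8, Col2a1 1 of 11 and Col1a2 none of 3, and Lum and Dcn had no replicate 2 distal peak of that score within 50 kb. Low counts were thus found at factors and at matrix genes. With each run counted once the share was 19.8%.

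Diencephalon, hypothalamus and eye field regulators had 39 of 161 peaks, 24.2% (18.3 to 31.4%), among them Sox14 with 9 of 12 and Foxb1 with 5 of 14. A region was within 50 kb of 11 of the 16 genes, but of none of Six3, Six6, Vax1, Barhl2 and Lhx9. Tcf7l2 had 1 of 14 and Gbx2 1 of 13. Counting each run once gave 13.5% for the list. Sensory placode, inner ear and ganglion genes had 19 of 80, 23.8%, most of them at 1 locus, and with each run counted once the share was 7.58% (3.28 to 16.5%). Posterior Hox genes had 9 of 51, 17.6% (9.57 to 30.3%), with 4 at the Hoxc genes from Hoxc6 to Hoxc11. Midbrain regulators had 20 of 142, 14.1%, from Meis2 (8 of 30), the pioneer factor Foxa1 (7 of 10) and En1 (3 of 13) in the main. With each run counted once the midbrain share was 4.69%, near the background.

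Regulators of the hindbrain and rhombic lip had 23 of 236 peaks, 9.75% (6.58 to 14.2%), and 6.17% with each run counted once. Of these, 6 were within 50 kb of Hoxa2, 3 each of Pax6 and Zic2, and none of Atoh1, Barhl1, Egr2 or Ptf1a. Pan-neuronal genes, such as Tubb3 and Snap25, had 3 of 157 (1.91%), and neural progenitor genes 7 of 166 (4.22%). Choroid plexus and roof plate genes had 2 of 87 (2.30%), and oligodendrocyte lineage genes 7 of 86 (8.14%).

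Lists for cells that could be present in small number gave shares whose intervals included the background in the 50 kb window. These were 4 of 74 peaks for endothelial genes (5.41%), 3 of 56 for erythroid genes (5.36%), 2 of 58 for microglia and myeloid genes (3.45%) and 4 of 65 for skeletal muscle genes (6.15%). Epidermal genes had 2 of 40 (5%), liver genes 2 of 49 (4.08%) and germ line genes 0 of 26, which allows up to 11.5%. Within 20 kb erythroid genes had 3 of 11 peaks, 27.3% (9.75 to 56.6%), against 5.05% at all coding genes. The part of cell composition in the location of the regions was not tested.

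For comparison, the share of replicate 1 distal peaks at or above that library's lower quartile that lacked a replicate 2 counterpart was 44.1% within 50 kb of all coding genes. It was 48.6% at telencephalon regulators, 47.8% at mesenchymal genes and 51.9% at hindbrain regulators. Over all replicate 1 distal peaks at or above that quartile it was 49.9%. Of the 18 lists, posterior Hox genes had the highest value, 59.4%, followed by sensory placode genes with 53.6%. Pan-neuronal genes had the lowest, 36.75%. Telencephalon regulators, highest for the replicate 2-only regions within 50 kb, were thus not highest in this set, while pan-neuronal genes were low in both. The difference between the sets was not tested.

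**Figure D3:**
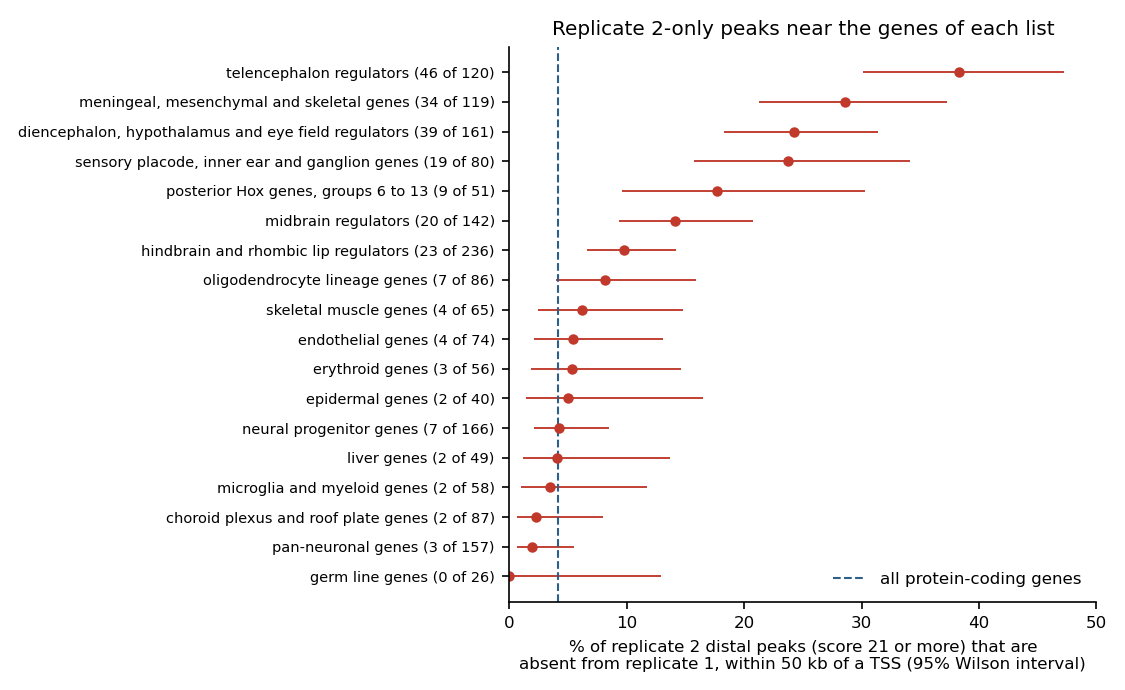
Share of replicate 2 distal peaks of score 21 or more that have no replicate 1 peak or hotspot (horizontal axis, percent) within 50 kb of the genes of each of 18 lists (vertical axis, with counts). Points are shares with 95% Wilson intervals, and the dashed line is the 4.17% of all protein-coding genes; telencephalon regulators stand at 38.3% and pan-neuronal genes at 1.91%.

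The regions were poorer in GC than shared peaks. Their median GC content was 46.0% (quartiles 40 and 51.3%), against 50% in shared peaks and 48% in shared peaks weighted to the same scores. A GC content under 40% was found in 22.8% of the regions and in 10.9% of score-weighted shared peaks. At 60% or more these shares were 3.11% and 4.14%. Regions in runs had a median of 44.0%, and 34.4% of them were under 40%.

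Around the regions, CpG was less depleted than around shared peaks. The CpG ratio is the observed number of CpG dinucleotides over the number expected from the C and G content. In windows of 500 bp its median was 0.270 for the regions and 0.242 for score-weighted shared peaks, and in windows of 5 kb it was 0.253 and 0.206. Another 4666 replicate 2 distal peaks of score 21 or more overlapped a replicate 1 hotspot but no replicate 1 peak. Without weights, these had 0.321 and 0.252 in the 500 bp and 5 kb windows, so the ratio was not particular to the regions. Regions in runs had medians of 0.369 and 0.411 for the 2 windows, while regions outside runs had 0.258 and 0.238. The runs at Isl2, Foxa1 and Emx2 had 5 kb medians of 0.596, 0.582 and 0.571. The run beside Nr2f1 had 0.259 and that of Zfhx3 0.329, so not all long runs lay in CpG-rich surroundings.

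**Figure D4:**
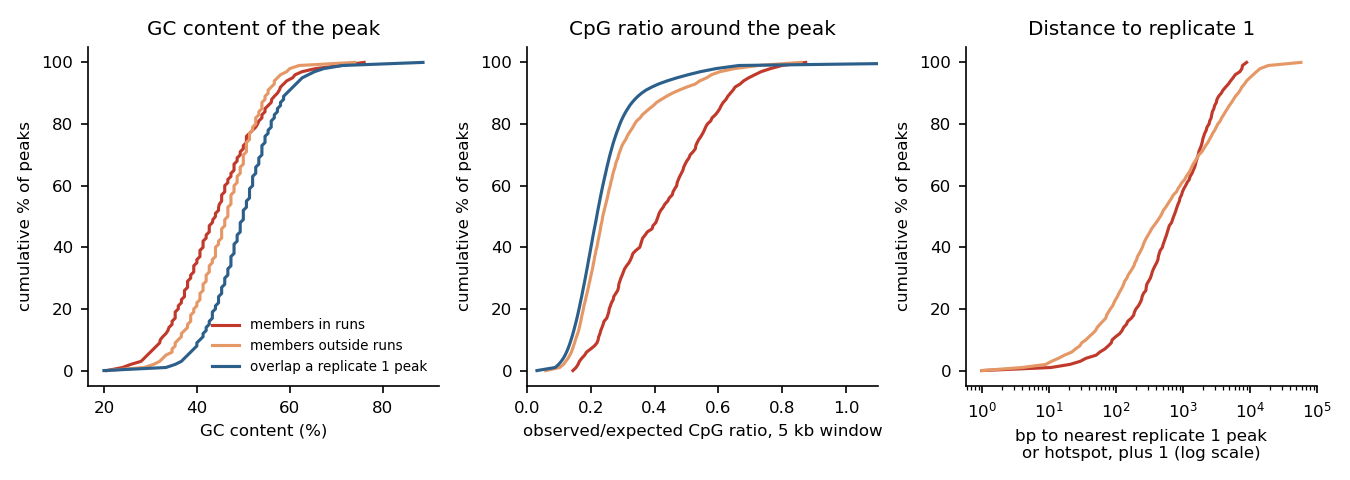
Cumulative share of peaks (vertical axes, percent) by GC content of the 150 bp peak, by CpG ratio of the 5 kb window and by distance to the nearest replicate 1 peak or hotspot (log scale), for regions in runs (red), regions outside runs (orange) and shared peaks (blue, first 2 panels). The median CpG ratio is 0.411 in runs, 0.238 outside runs and 0.219 in shared peaks without weights.

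Repeats were somewhat more frequent in the regions. Bases masked as repeat in the reference made up 12.8% of the regions on average and 8.89% of score-weighted shared peaks. No masked base was present in 48.1% of the regions and in 58.5% of those shared peaks. At least 50% of the window was masked in 155 regions, 5.30% (4.54 to 6.17%), against 2.82%. For regions in runs this share was 5.18%, from 25 of 483.

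In 4 of the 92 runs the mean repeat content reached 50%. The highest, 84.7%, was found in the run 32025 to 37365 bp from Slc7a15, whose 9 regions scored 21, 21, 21, 21, 22, 24, 24, 40 and 41 and whose span held no replicate 1 peak. Most windows could be placed without ambiguity: all 32-base words were unique in the assembly for 93.3% of the regions and 95.3% of score-weighted shared peaks, and under 50% of the words were unique in 12 regions.

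The regions lay nearer to gene starts than shared peaks. The median distance to any TSS was 9735.5 bp, against 19305 bp for score-weighted shared peaks, and 33.7% against 19% lay within 5 kb. In runs the median was 4881 bp. The 4666 peaks with a replicate 1 hotspot but no replicate 1 peak had, without weights, a median of 13756 bp, and 29.5% lay within 5 kb. Introns held 54.4% of the regions (1593), intergenic sequence 38.5% (1127), coding exons 1.88% (55) and other exons 5.16% (151). The exon share outside coding sequence was 12% in runs and 2.71% in score-weighted shared peaks. A RefSeq transcript start lay within 1 kb of 6.32% of the regions (185), so these are distal by GENCODE but not by RefSeq.

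A few regions were remote from any start. The farthest lay in an intron of Ptprd, a receptor phosphatase gene, 600193 bp from the nearest TSS. It was followed by regions 328420 bp from a start in the neighbourhood of Nr4a2 and 322359 bp away in Sox6. The next pair lay in an intron of Zfhx3. These remote regions had replicate 1 signal within 2 kb.

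Shares differed between chromosomes. The lowest among the autosomes and X was 2.58% on X (33 of 1279, 1.84 to 3.60%). The highest was 4.84% on chromosome 12 (181 of 3743, 4.19 to 5.57%), where the runs at Slc7a15 and Foxa1 lie. The interval of X lay below the 3.72% of all chromosomes and that of chromosome 12 above it, with regions of 1 run treated as independent. Of 25 distal peaks on Y none was among the regions, which allows a share of up to 12%.

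Short factor motifs were mostly less frequent in the regions than in shared peaks of the same scores. The share of windows with a match on either strand was counted for 26 consensus strings. Searched with their letters were the homeodomain core shared by many Hox, Lhx and Dlx factors (TAATTA) and the E-box bound by several helix-loop-helix factors (CAGCTG). Proneural factors such as Atoh1 prefer another E-box (CAGATG). Strings for the patterning factors were those of the MEIS homeodomain family (CTGTCA), the ZIC zinc-finger family of dorsal neural tissue (CAGCAGG) and the OTX homeodomain family of forebrain and midbrain (GGATTA). Further strings stood for the GATA factors of blood and midbrain neurons (AGATAA), the RUNX factors of blood and bone (ACCACA) and the TEAD partners of the Hippo pathway (CATTCC). The SOX string of progenitors (ACAATGG), the forkhead or FOX string (GTAAACA) and the ETS core (CCGGAA) were counted too. The remaining short strings were those of the myeloid factor PU.1 (GAGGAAGT), the AP-1 dimer (TGANTCA), the HOX-PBX pair (TGATTNAT) and the POU octamer (ATTTGCAT). Those of the SP and KLF family at GC boxes (GGGCGG), the T-box family (TCACACCT) and the CREB family (TGACGTCA) completed them, and longer consensus strings of EBF, MEF2, NRF1, RFX, NFI, REST and CTCF are named only.

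The regions were below the score-weighted shared peaks for 18 of the 26 strings, and for 11 the weighted share lay above the Wilson interval of the regions. The E-box was found in 9.74% of the regions (8.72 to 10.9%) and 16.6% of the weighted shared peaks, the proneural E-box in 13.8% and 18.3%, and MEIS in 11.4% and 15.3%. The homeodomain core had 5.78% and 8.68%, ZIC 5.02% and 8.36%, and SOX 1.74% and 2.66%. CTCF, the insulator protein, had 1.16% and 2.01%. RFX was found in 1 region, and NRF1 in none of 2926, which allows up to 0.103%.

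For 8 strings the regions were above, and for 4 of them the weighted share lay below the interval. These were OTX with 5.57% (4.80 to 6.46%) against 4.6%, GATA with 8.48% against 7.35%, ETS with 2.87% against 2.25% and PU.1 with 1.26% against 0.863%. In runs the proneural E-box was found in 7.87% of the regions and the E-box in 6.21%. Among all replicate 2 distal peaks the shares of the strings capitalised in the sequences above were 8.27% for ZIC, 13.4% for MEIS, 4.69% for OTX, 2.20% for FOX and 16.1% for the proneural E-box. A match is a run of letters and not a bound site. The part of the lower GC content of the regions in these shares was not tested.

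**Figure D5:**
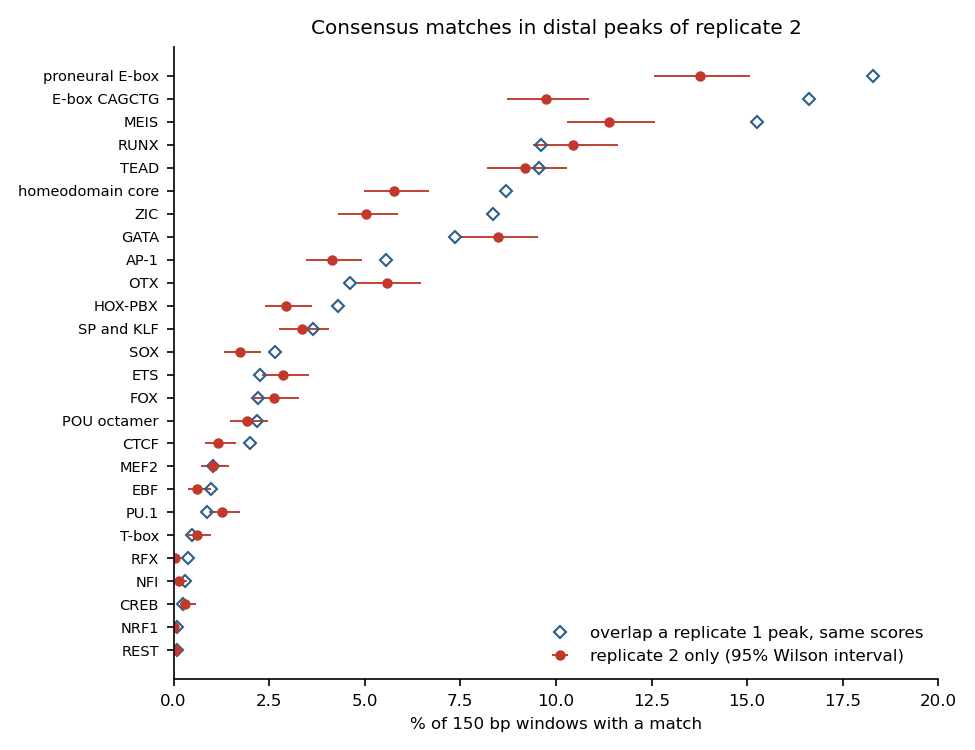
Share of 150 bp windows with a match to each of 26 consensus strings (horizontal axis, percent; vertical axis, strings ordered by the blue value). Red points are the 2926 regions with 95% Wilson intervals and blue diamonds are shared distal peaks weighted to the same scores; the E-box stands at 9.74% and 16.6%.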

How the data were processed

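Peaks and hotspots were listed for each replicate separately by the authors. Per the file columns as deposited by the authors, each 150 bp peak carries a score, a whole number up to 150, and each hotspot a −log10 q-value capped at 100. Per the labels, the assembly is mm10. No source used here names the aligner or the peak caller. No column of another sample was used (0 columns).

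Peaks on chromosomes 1 to 19, X and Y were compared, and 1 bp of overlap counted. Distances ran from peak midpoints to GENCODE M21 basic TSS. Sequence and soft-masked repeats came from GRCm38.p6 (RefSeq), and no peak end passed a chromosome end. Shared peaks were also weighted so that their scores were distributed as those of the regions. Python 3.11.15, pandas 2.3.3, numpy 2.4.6, scipy 1.17.1, numba 0.67.0, pysam 0.24.0, samtools 1.23.1 and matplotlib 3.10.9 were used, and the overlap, distance and run functions were checked on simulated data.

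The regions and all lists were chosen with earlier results of these data known. Named genes were those of the 12 highest regions, the 15 genes with most regions, the 10 longest runs by number, the 5 regions farthest from a TSS and genes of the 18 lists; a few of these genes and 1 sequence are not reported here. Ccdc7a, Slc7a15 and the gene families compared by share were singled out after their values were seen. With 1 library on each side no test between replicates was possible, and no p-value is given.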

Additional observations from a re-analysis of the deposited data

How the results depend on the processing

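Raising the score threshold to 30 left 289 regions, 11 runs and 43 regions in runs, and raised the median 500 bp CpG ratio to 0.346 and the share at transcription factor genes to 40.1%. A threshold of 40 left 24 regions, with a median GC content of 49.7%, a CpG ratio of 0.400, 8.33% at least 50% repeat and 50% intronic. Requiring no replicate 1 signal within 500 bp left 1479 regions, with values of 0.254 for the CpG ratio, 6.96% for repeats and 19.4% for transcription factor genes. Ignoring replicate 1 hotspots gave 7592 regions. With each run counted once the share at transcription factor genes was 9.51%. Weighting shared peaks to the same scores moved their GC content to 48% and their repeat share to 2.82%. Over all lists together the share of 13.1% became 19.8% with a 20 kb window, 9.22% with 100 kb, 9.84% by nearest gene and 7.42% with each run counted once.

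Other definitions of overlap, TSS and run spacing kept the counts of regions and runs within 1.5 times. The alternatives on RefSeq starts and on transcription factor genes were chosen after seeing the data. Leaving out a replicate gives no value, because both libraries define the regions. No paired analysis was possible because there is 1 group. Depth is unknown, so an absent replicate 1 call is not shown to be absent signal.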
